A study of Rattus norvegicus with 6 samples.

Results

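The miR-23, miR-27 and miR-24 miRNAs were measured in rat liver as 5 mature 3p strands: rno-miR-23a-3p, rno-miR-23b-3p, rno-miR-24-3p, rno-miR-27a-3p and rno-miR-27b-3p. A distinct read sequence is called a tag here, and a tag was given to one of these miRNAs when its first 20 bases equalled the first 20 of the mature sequence. In this way 357 of 1528721 tags were assigned to the 5 miRNAs, which are 5 of the 360 miRNA sequences of that length with at least 1 read. No 2 of the 5 share these 20 bases. Levels are given as TPM, the reads of a miRNA for every 1000000 clean reads in its library.

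Liver RNA of 3 male Wistar rats with non-alcoholic fatty liver disease (NAFLD) was compared with that of 3 normal male Wistar rats, with 1 small RNA library per rat. The NAFLD rats were fasted for 48 h and then ate a diet with 80% starch freely for 7 days, and their livers were picked among those with higher hepatic triglycerides. The normal rats, picked at random, ate a standard diet with 35% starch without the fast. The age is 4 months by the sample labels and 28 weeks by the methods, and the short feeding and the choice of livers limit the group as a model of lasting disease. Each library held 11601058 to 11880695 clean reads, of which 75.5% to 78.9% in the NAFLD libraries and 85.6% to 91.0% in the normal libraries began with a known miRNA sequence. Whole liver was used, so fewer cells of a type and less miRNA per cell cannot be told apart.

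These miRNAs come from a pair of gene clusters. Each cluster is transcribed as a single long RNA that is cut into a miR-23, a miR-27 and a miR-24 hairpin, after which Dicer releases the mature strands. A miRNA directs Argonaute to messenger RNAs mainly through its seed, bases 2 to 8. In lipid biology, miR-27 is known as a repressor of Pparg, the receptor that drives fat cell formation, and miR-24 as a repressor of Insig1, which holds back the SREBP factors of lipid synthesis.

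In the GRCr8 assembly of RefSeq, Mir24-1 (chr17:1818669-1818736), Mir27b (chr17:1819147-1819243) and Mir23b (chr17:1819386-1819482) lie on the minus strand within 814 bases. The annotated spans of the protein-coding genes Aopep and Fancc cover this cluster, and whether it falls in an intron of either was not analysed here. Mir24-2 (chr19:40859455-40859562), Mir27a (chr19:40859603-40859689) and Mir23a (chr19:40859769-40859843) lie on the minus strand within 389 bases, next to Zswim4 and within no other annotated gene. Both clusters carry the hairpins in the same order. The mature sequences from RefSeq are shown since they decide which reads can be told apart, with the seed in capitals.
rno-miR-23a-3p: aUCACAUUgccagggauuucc
rno-miR-23b-3p: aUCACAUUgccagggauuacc
rno-miR-27a-3p: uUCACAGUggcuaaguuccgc
rno-miR-27b-3p: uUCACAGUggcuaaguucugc
rno-miR-24-3p: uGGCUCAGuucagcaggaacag

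With positions counted from 1 at the 5′ end, miR-23a and miR-23b differ in 1 of 21 bases (U19A), and so do miR-27a and miR-27b (C19U). The paralogs thus share their seeds. The seeds of miR-23 and miR-27 differ in 1 of 7 bases (U7G), while the miR-24 seed differs from that of miR-23 at all 7 positions. The mature miR-24-3p is the same from Mir24-1 and Mir24-2, so its reads were not divided between the clusters.

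The libraries fell into separate sets by the share of reads with a base change, and both diets were found in each set. Over 50 abundant miRNAs other than these 5, the median share of reads substituted at position 4 was 2.39% to 2.88% in NAFLD 2, NAFLD 3 and normal 2 (named by group and replicate number). It was 0.036% to 0.060% in NAFLD 1, normal 1 and normal 3. NAFLD 2, NAFLD 3 and normal 2 are called the substituted libraries below. Reads with 1 substitution in bases 1 to 18 made up 27.4% to 28.8% of miR-23a-3p in the substituted libraries and 0.780% to 2.17% in the others. For miR-23b-3p the shares were 26.4% to 28.6% and 0.627% to 1.89%. miR-27a-3p had 16.8% to 21.4% against 1.52% to 1.92%, miR-27b-3p had 17.8% to 22.7% against 1.13% to 3.08%, and miR-24-3p had 13.3% to 15.2% against 0.853% to 1.18%. The substituted and the other libraries did not overlap for any of the 5.

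In each of the 5 miRNAs the most frequent change was from A to C at an A in the middle of the strand. In miR-23a-3p the change A16C was found in 121 to 272 reads of each substituted library and in 0 reads of the other 3. For miR-23b-3p the same A16C had 154 reads in NAFLD 2, 176 in NAFLD 3 and 151 in normal 2, again with 0 elsewhere. A15C of miR-24-3p had 355, 421 and 319 reads there, against 1 read in all of the others. A14C had 29, 43 and 8 reads in miR-27a-3p and 26, 40 and 29 reads in miR-27b-3p, with 0 in the others. The paralogs of a family thus carried the same leading change. An exact match of 20 bases leaves these reads out, which lowers the TPM of the substituted libraries.

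**Figure D1:**
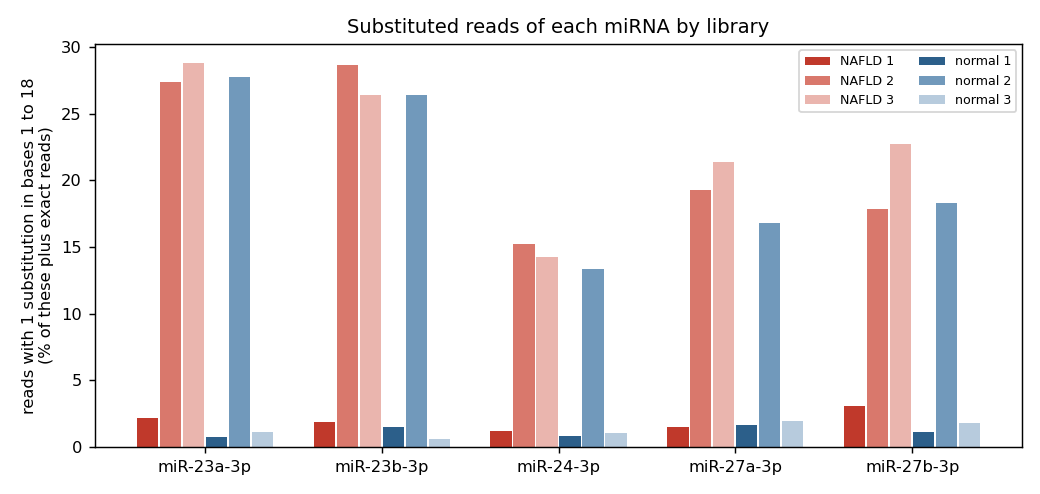
Share of reads with 1 substitution in bases 1 to 18, as a percent of these plus the exact reads, for each miRNA and library. Bars reach 13.3% to 28.8% in NAFLD 2, NAFLD 3 and normal 2 and at most 3.08% in NAFLD 1, normal 1 and normal 3.

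miR-24-3p was the most abundant of the 5, at rank 21 of the 360 miRNAs by mean TPM. It measured 592 TPM in NAFLD 1, 363 in NAFLD 2 and 417 in NAFLD 3, against 422, 364 and 481 TPM in normal 1, 2 and 3. The groups overlapped, with NAFLD 1 above and NAFLD 2 below every other library.

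miR-23a-3p, at rank 40, measured 97.3, 64.1 and 97.9 TPM for NAFLD 1, 2 and 3 against 96.6, 46.2 and 83.6 TPM for normal 1, 2 and 3. miR-23b-3p, at rank 43, measured 93.9, 57.2 and 78.4 TPM against 96.6, 62.4 and 80.05 TPM in the same order. Replicate number 2, a substituted library in NAFLD and in normal liver, was the lowest of its group for both paralogs by exact match. The same held for miR-24-3p and for both miR-27 strands.

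The miR-27 strands were scarcer, at ranks 80 and 71. miR-27a-3p measured 16.8, 14.97 and 17.4 TPM for NAFLD 1, 2 and 3 against 20.3, 8.76 and 17.2 TPM for normal 1, 2 and 3. The low value of normal 2 rests on 104 reads. miR-27b-3p measured 21.7, 16.8 and 17.9 TPM against 29.6, 17.7 and 23.3 TPM, again with overlap.

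**Figure D2:**
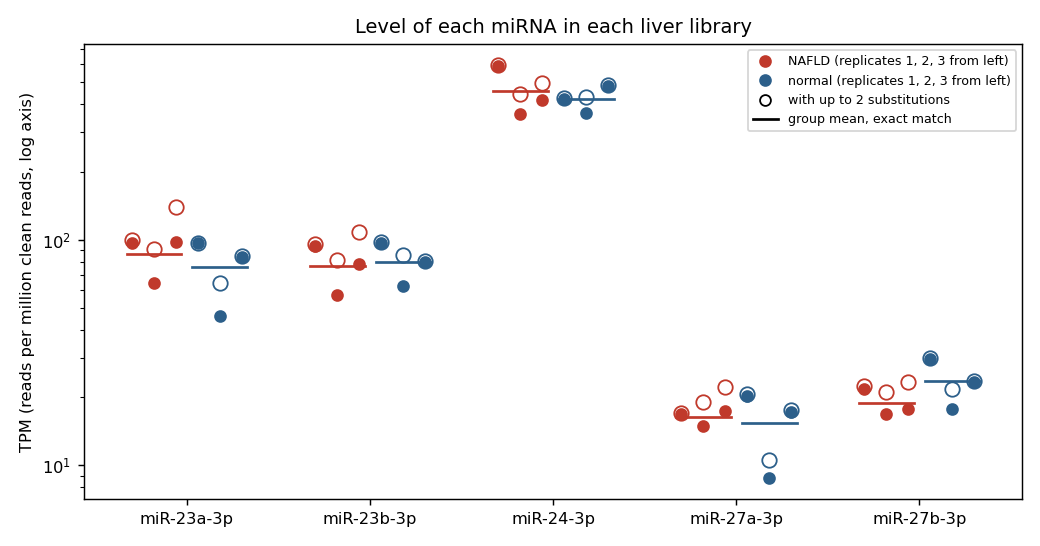
Level of each miRNA in each library in TPM on a log axis, with filled points for exact matches, open points with up to 2 substitutions allowed in bases 1 to 18, and lines at the group means of exact matches. miR-24-3p lies between 363 and 592 TPM in all 6 libraries, above the miR-23 strands at 46.2 to 97.9 TPM and the miR-27 strands at 8.76 to 29.6 TPM.

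By group means, miR-24-3p stood at 457 ± 120 TPM in NAFLD and 422 ± 58.5 TPM in normal liver (SD, n = 3 each). miR-23a-3p had 86.4 ± 19.3 and 75.4 ± 26.2 TPM, and miR-23b-3p had 76.5 ± 18.4 and 79.7 ± 17.1 TPM, in the same order (SD, n = 3 each). The 2 miR-23 paralogs, matched by 20 bases, did not differ beyond this spread. miR-27a-3p had 16.4 ± 1.28 and 15.4 ± 5.98 TPM, and miR-27b-3p had 18.8 ± 2.58 and 23.5 ± 5.96 TPM (SD, n = 3 each). Levels of all 3 families kept the order miR-24, miR-23, miR-27 in every library. Each read spans a whole strand, so these levels need no division by length. The 5 miRNAs together reached 655 ± 154 TPM in NAFLD and 616 ± 102 TPM in normal liver (SD, n = 3 each; two-sided exact permutation test, p = 0.9). miR-24-3p made up 63.4% to 72.9% of this sum.

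With up to 2 substitutions allowed in bases 1 to 18, a setting chosen after these shares were seen, miR-23a-3p had 99.6, 90.7 and 139.8 TPM in NAFLD 1, 2 and 3. In normal 1, 2 and 3 it then had 97.4, 64.5 and 84.5 TPM. Thus 2 of the 3 NAFLD libraries lay above all normal libraries, and NAFLD 2 lay below normal 1. miR-23b-3p had 95.9, 81.6 and 108.4 TPM against 98.2, 85.9 and 80.6 TPM. miR-24-3p had 599, 443 and 498 TPM against 426, 431 and 486.4 TPM. miR-27a-3p had 17.1, 19.05 and 22.3 TPM against 20.7, 10.5 and 17.5 TPM, and miR-27b-3p had 22.4, 21.1 and 23.4 TPM against 29.9, 21.9 and 23.7 TPM. The groups overlapped for each of the 5 miRNAs here too, with exact permutation p from 0.2 to 0.6.

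The comparison of NAFLD with normal liver asks which of these miRNAs change with the diet-induced fatty liver. None of the 5 passed edgeR's quasi-likelihood test across the 167 miRNAs with enough reads (0 of 5 at an adjusted p under 0.05, where 0.599% of all miRNAs tested passed, and 0 of 5 at an unadjusted p under 0.05, where 3 of 167 or 1.8% passed). The groups did not overlap for 0 of the 5, against 4.19% of all miRNAs tested, or 2.4% counting those higher in NAFLD. Log2 fold changes of NAFLD over normal had a median of 0.09 over the 5 and of 0.003 over all 167, and 3 of 5 and 84 of 167 were above 0.

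By edgeR, the log2 fold change was 0.20 for miR-23a-3p (standard error 0.46, 95% interval -0.78 to 1.18, adjusted p = 0.993). miR-24-3p had 0.11 (standard error 0.39, interval -0.71 to 0.94) and miR-27a-3p had 0.09 (standard error 0.42, interval -0.80 to 0.98). The value was -0.06 for miR-23b-3p (standard error 0.44, interval -0.9998 to 0.88) and -0.32 for miR-27b-3p (standard error 0.40, interval -1.18 to 0.53). edgeR gave an adjusted p of 0.993 for all of them. Changes inside each miRNA's own interval are thus not excluded at this spread, and the interval is not a limit of detection.

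With up to 2 substitutions the intervals were narrower. miR-23a-3p then had 0.42 (standard error 0.25, interval -0.12 to 0.96, adjusted p from edgeR = 0.581). miR-24-3p had 0.20 (interval -0.23 to 0.62) and miR-27a-3p had 0.26 (interval -0.36 to 0.88). miR-23b-3p turned from -0.06 to 0.11 (interval -0.37 to 0.59), so no direction is given for it, and miR-27b-3p had -0.17 (interval -0.69 to 0.34). This setting also moved the median of all miRNAs tested to 0.19. miR-23a-3p and miR-27a-3p were above that median, and miR-23b-3p and miR-27b-3p below it. miR-24-3p lay almost at the median (0.199 against 0.192). For 4 of the 5 the direction hung on single libraries, while miR-27b-3p stayed below 0, from -0.49 to -0.12, with each library left out. Without normal 2, miR-23a-3p had -0.06 and miR-27a-3p -0.19 by exact match, and without NAFLD 1, miR-24-3p had -0.11. For miR-23b-3p the value was 0.11 without NAFLD 2 and 0.10 without normal 1.

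**Figure D3:**
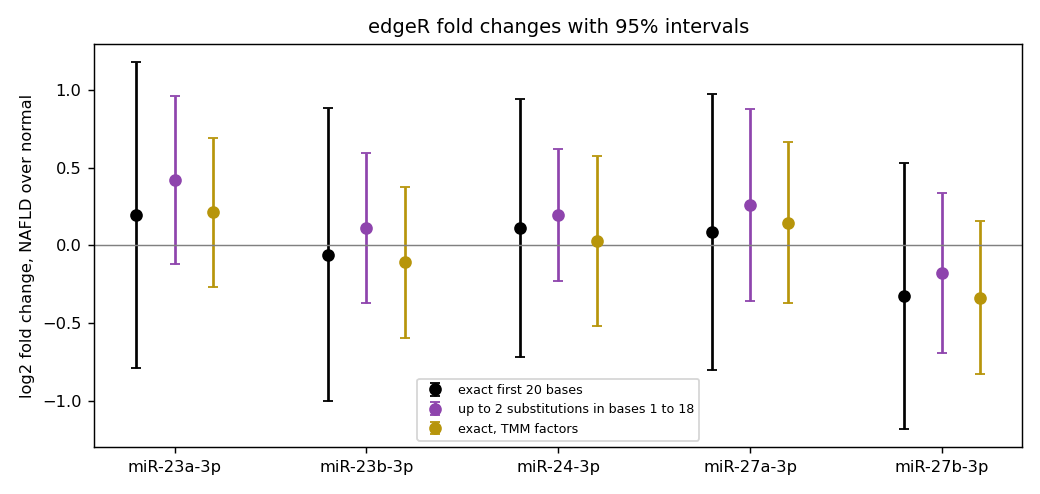
Log2 fold change of NAFLD over normal from edgeR for each miRNA, with 95% intervals, by exact match, with up to 2 substitutions, and by exact match with TMM factors. Every interval includes 0, from -1.18 at the lowest to 1.18 at the highest for exact matches.

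Within the libraries of one substitution rate, the values could be compared for 1 against 2 libraries, with no test. NAFLD 1 against normal 1 and normal 3 gave log2 differences of 0.11 for miR-23a-3p, 0.09 for miR-23b-3p, 0.39 for miR-24-3p, -0.16 for miR-27a-3p and -0.28 for miR-27b-3p. NAFLD 2 and NAFLD 3 against normal 2 gave 0.81, 0.12, 0.10, 0.89 and -0.03 in the same order. The 2 miRNAs of the chromosome 19 cluster, miR-23a-3p and miR-27a-3p, thus stood high in the latter comparison, where normal 2 is the only normal library.

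The ratio of a paralog to its partner needs no scaling between libraries. For miR-27 the ratio of a to b was 0.774, 0.889 and 0.976 for NAFLD 1, 2 and 3 against 0.687, 0.495 and 0.736 for normal 1, 2 and 3. All 3 NAFLD libraries lay above all 3 normal libraries, and miR-27b-3p was the more abundant paralog in all 6. The mean log2 ratio was -0.19 ± 0.17 and -0.67 ± 0.31 (SD, n = 3 each), a difference of 0.47 by a two-sided exact permutation (p = 0.1, which is the lowest possible here). The gap between the groups is small beside counting error. NAFLD 1, with 195 reads of a and 252 of b, had a 95% Wilson interval of the ratio from 0.642 to 0.933, and normal 3, with 204 and 277 reads, had 0.615 to 0.882. Normal 2, with 104 and 210 reads, had 0.392 to 0.626, below the intervals of all NAFLD libraries. Without this library the difference was 0.30 in place of 0.47. It was 0.12 within the libraries of low substitution rate and 0.91 within the substituted ones.

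For miR-23 the ratio of a to b was 1.04, 1.12 and 1.248 for NAFLD 1, 2 and 3 against 1, 0.740 and 1.04 for normal 1, 2 and 3. Here the groups overlapped, since normal 3 (1.044) lay above NAFLD 1 (1.037). The mean log2 ratio was 0.18 ± 0.13 and -0.12 ± 0.27 (SD, n = 3 each), a difference of 0.30 (exact permutation p = 0.2). Normal 2 was again the lowest library, and without it the difference was 0.15. Within the libraries of low substitution rate it was 0.02, and within the substituted ones 0.68. Exact permutation of 3 against 3 cannot bring either of the 2 ratios compared below p = 0.1.

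**Figure D4:**
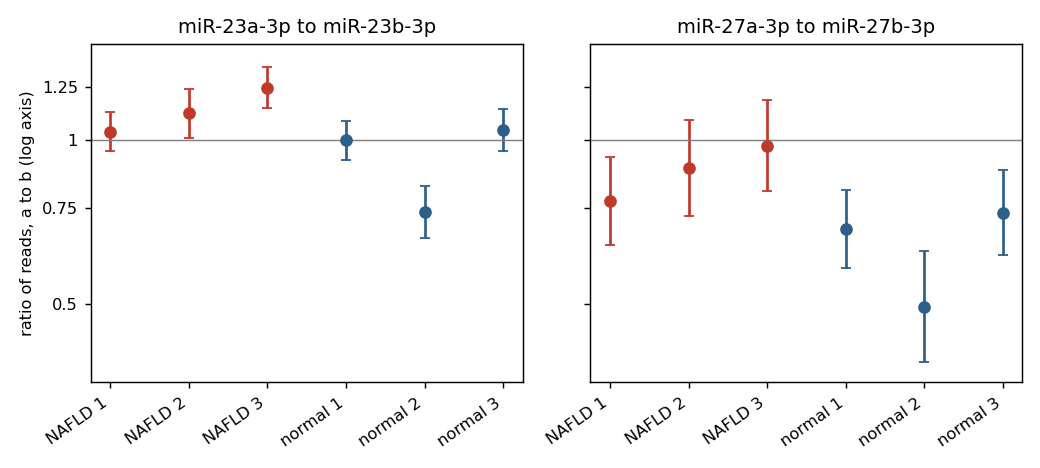
Ratio of reads of the a to the b paralog of miR-23 and miR-27 in each library on a log axis, with 95% Wilson intervals for counting error. Normal 2 is the lowest library in both panels, at 0.740 for miR-23 and 0.495 for miR-27, and the NAFLD libraries of miR-27 span 0.774 to 0.976.

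The base that tells the paralogs apart, base 19, lies near the end of the strand, so the reads that lack it or carry another base there were counted. Over tags that share the first 18 bases of miR-23, base 19 was U or A, the base of a or b, in all but 0 to 4 reads per library among tags of at least 19 nt. For miR-27 the other bases made up 3 to 12 reads per library. Tags of 18 nt, which end before base 19 and were given to neither paralog, were more frequent. For miR-27 they had 57, 37 and 43 reads in NAFLD 1, 2 and 3 against 35, 6 and 12 reads in normal 1, 2 and 3, without overlap, and for miR-23 1 to 11 reads per library. The nearest libraries of the groups, NAFLD 2 with 37 reads and normal 1 with 35, lay close together. This difference was not tested, and it was not set beside the tags of 18 nt of all miRNAs. The counts cover tags of 18 nt alone, as the match of 20 bases also leaves out tags that end at base 19 or differ later. The part of any of these reads in the ratio was not tested. Tags that matched 19 bases but not 20 were more frequent for miR-27b-3p. By the first 19 bases miR-27b-3p had 321 to 633 reads per library, against 198 to 351 by 20 bases. Such tags either end at base 19 or carry another base 20, and these kinds were not counted apart. With 19 bases the mean log2 ratio of miR-27a to miR-27b was -0.87 in NAFLD and -1.26 in normal liver, a difference of 0.39 without overlap, and the difference for miR-23 was 0.29, also without overlap (exact permutation p = 0.1 for both). By the whole mature sequence, only tags equal to the annotated strand count, so longer and shorter tags are left out. The mean log2 ratio of miR-23a to miR-23b was then 1.64 in NAFLD and 1.33 in normal liver. That of miR-27a to miR-27b was -1.83 ± 0.06 and -2.61 ± 0.85 (SD, n = 3 each), and normal 2 had 9 such reads of miR-27a-3p. Such tags made up 18.8% of the reads of miR-23a-3p and 7.02% of those of miR-23b-3p. For miR-27a-3p and miR-27b-3p it was 16.3% and 53.2%. The level of both ratios thus depends on the matching rule and on which tag ends it keeps.

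Between the miRNAs of one cluster the read ratios overlapped between the groups. miR-23a-3p exceeded miR-27a-3p by 4.28 to 5.79 times and miR-23b-3p exceeded miR-27b-3p by 3.26 to 4.39 times across the 6 libraries (exact permutation p = 0.7 and 0.3). miR-24-3p, the sum of both clusters, exceeded the sum of both miR-23 strands by 2.18 to 3.35 times (p = 1, exact permutation).

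The opposite strands of the hairpins, the 5p or passenger strands, are degraded for the most part once the 3p strand is loaded. They bear on the clusters because Mir24-1 and Mir24-2 differ in this strand. Of the 6 names listed, 5 matched RefSeq by name and rno-miR-23a-5p did not. The 2 most read are shown with the seed in capitals.
rno-miR-23b-5p: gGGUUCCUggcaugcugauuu
rno-miR-27b-5p: aGAGCUUAgcugauuggugaacag

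miR-23b-5p measured 6.90, 5.61 and 7.70 TPM for NAFLD 1, 2 and 3 against 7.09, 5.81 and 9.93 TPM for normal 1, 2 and 3. miR-27b-5p measured 4.40, 2.04 and 2.37 TPM against 4.47, 3.37 and 4.80 TPM. Both overlapped between groups, and neither passed edgeR's test (log2 fold change -0.18, standard error 0.38, and -0.52, standard error 0.42, adjusted p = 0.993 for both). Single libraries moved these values: miR-23b-5p had 0.06 without normal 3, and ran from -0.34 to 0.06 over all libraries left out in turn. miR-27b-5p had -0.93 without NAFLD 1 and -0.32 without NAFLD 2. The 3p strand exceeded the 5p strand by 8.06 to 13.6 times for miR-23b and by 4.86 to 8.25 times for miR-27b. Both ratios overlapped between the groups (exact permutation p = 1 and p = 0.3). The 5p strand of Mir27a was read 3 times in all 6 libraries, that of Mir24-2 28 times (2 to 8 reads per library) and that of Mir24-1 1 time. For these 3 strands the depth allows no comparison between groups. The passenger reads of miR-27 were thus mostly from the chromosome 17 cluster, with 253 of Mir27b, and those of miR-24 mostly from the chromosome 19 cluster.

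The 3′ ends of the tags were not used to choose them beyond base 20. Tags under 20 nt are left out by the matching rule, so shares and leading tags hold for longer tags only. The most read of these tags is shown for each miRNA, with the bases that do not match the RefSeq hairpin in capitals.
miR-23a-3p: atcacattgccagggatttcca
miR-23b-3p: atcacattgccagggattaccacT
miR-24-3p: tggctcagttcagcaggaacagT
miR-27a-3p: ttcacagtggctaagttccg
miR-27b-3p: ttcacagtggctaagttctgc

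Only the miR-27b-3p tag is the mature sequence as annotated. That of miR-23a-3p is 1 base longer, with the base that the hairpin has there, and made up 32.2% to 36.9% of its reads. The leading tag of miR-23b-3p, of 24 nt, made up 37.5% to 50.8% of its reads and ends in a T where the hairpin goes on with G. For miR-24-3p the leading tag of 23 nt, at 49.97% to 53.9% of its reads, also ends in a T where both hairpins have G. The leading tag of miR-27a-3p, at 47.1% to 54.8%, stops 1 base short of the annotated end, and that of miR-27b-3p made up 46.9% to 58.7%.

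A tail of only U beyond the hairpin sequence, read as T, was carried by 65.3% to 69.0% of miR-24-3p reads and 47.4% to 59.9% of miR-23b-3p reads. The share was 15.1% to 19.98% for miR-23a-3p, 18.8% to 24.6% for miR-27b-3p and 7.69% to 20.2% for miR-27a-3p. The paralogs miR-23a-3p and miR-23b-3p, which differ in a single mature base, thus did not overlap in this share in any of the 6 libraries. Tails of only A were less frequent, with 9.80% to 13.5% in miR-27a-3p, 5.70% to 11.1% in miR-27b-3p and at most 5.89% in the others. A tail base that happens to match the hairpin is counted as encoded here, and whether the tails are added or encoded in Wistar rats was not tested.

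**Figure D5:**
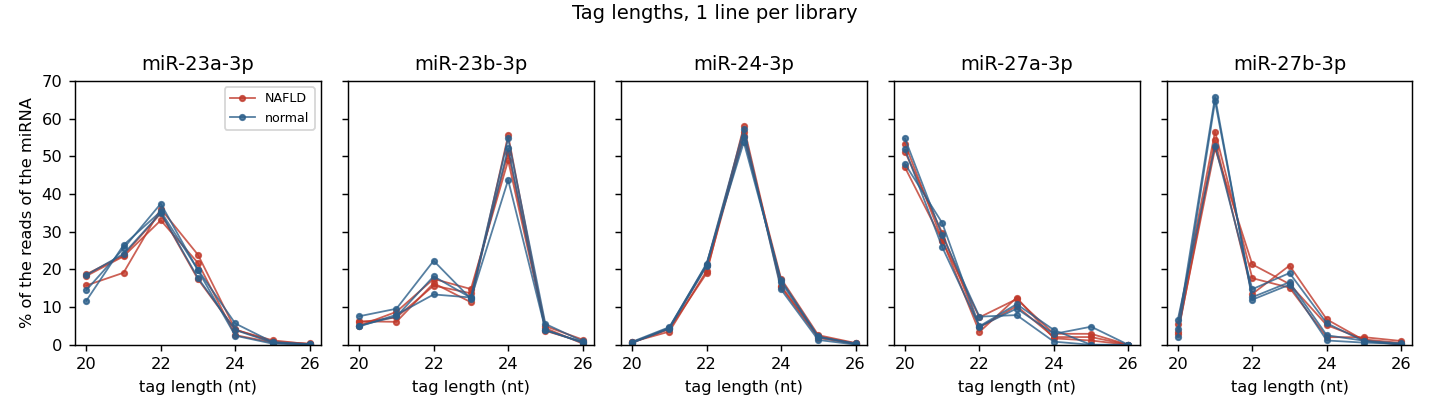
Share of the reads of each miRNA by tag length in nt, with 1 line per library. Tags under 20 nt are left out by the matching rule. Among the tags kept, the peak is at 22 nt for miR-23a-3p, 24 nt for miR-23b-3p and 23 nt for miR-24-3p. It is at 20 nt for miR-27a-3p and 21 nt for miR-27b-3p, in libraries of both groups.

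Mean tag lengths, counted from 20 nt up, were 21.7 to 21.9 nt for miR-23a-3p, 22.9 to 23.2 nt for miR-23b-3p, 22.85 to 22.96 nt for miR-24-3p, 20.71 to 21.05 nt for miR-27a-3p and 21.5 to 21.8 nt for miR-27b-3p. Between the groups, 65 shares and means of the 3′ ends were compared by exact permutation tests, and 3 of them did not overlap. They were the share of miR-23a-3p reads of 21 nt (22.1% ± 2.59 in NAFLD, 25.4% ± 1.19 in normal), that of miR-27b-3p reads of 25 nt (1.54% ± 0.428, 0.868% ± 0.267) and that of miR-27b-3p reads in its leading tag (49.1% ± 1.94, 55.7% ± 4.15, SD, n = 3 each). They were singled out after their values were seen, and each has an exact permutation p of 0.1 and an adjusted p of 0.897 over the 65 comparisons.

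The 5′ end sets the seed. Among tags that start within 2 bases of the annotated start and match the hairpin for 20 bases, 99.3% of miR-24-3p reads, 99.9% of miR-27a-3p reads and 98.7% of miR-27b-3p reads began at the annotated base. For miR-23a-3p it was 97.7%, with 2.01% beginning 1 base earlier, and for miR-23b-3p 94.7%, with 5.003% beginning 1 base later. Among the tags counted, miR-23b-3p thus had the largest share of reads with a shifted seed of the 5. A tag with a later start must reach further along the hairpin to be counted. Of the miR-27a-3p reads, 47.1% to 54.8% were of 20 nt, so these shares are not fully comparable between the miRNAs. Between the groups, the share of reads with another start was compared for each of the 5 and did not overlap for miR-24-3p, at 0.638% ± 0.0131 in NAFLD and 0.703% ± 0.0406 in normal liver (SD, n = 3 each, exact permutation p = 0.1). For the other 4 it overlapped. The miR-24-3p share was singled out after its values were seen, and its p was not adjusted over the 5.

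Across the 6 libraries, levels of the 5 miRNAs varied together by exact match, with Pearson's r of log2(TPM + 1) from 0.43 to 0.93 over the 10 pairs. These points share library, depth and loss to substitution. With up to 2 substitutions allowed, r ran from -0.29 to 0.86, with 0.86 for miR-23a-3p and miR-27a-3p of the chromosome 19 cluster, 0.41 for miR-23b-3p and miR-27b-3p of the chromosome 17 cluster, and 0.77 for miR-23a-3p and miR-23b-3p of different clusters. Among the 36 miRNAs with a mean of at least 100 TPM, the most alike over the 6 libraries by exact match was miR-25-3p for miR-23a-3p (r = 0.96) and for miR-27a-3p (r = 0.97). It was miR-101a-3p for miR-23b-3p (r = 0.95), miR-22-3p for miR-27b-3p (r = 0.94) and miR-1839-5p for miR-24-3p (r = 0.95). The next most alike were miR-103-3p and miR-378a-3p for miR-23a-3p, miR-22-3p and miR-26a-5p for miR-23b-3p, miR-185-5p and miR-31a-5p for miR-24-3p, miR-21-5p and miR-103-3p for miR-27a-3p and miR-30a-5p and miR-101b-3p for miR-27b-3p.

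Among other miRNAs known for a part in lipid control, 18 were listed and 14 sequences tested, of which 0 rose and 1 fell. The one that fell was miR-122-5p, the main hepatocyte miRNA, at -0.35 on the log2 scale (standard error 0.04, adjusted p from edgeR = 5.59e-05), and it is the only miRNA called of the 167. With up to 2 substitutions, with reads assigned to miRNAs as library size, or with limma, 0 miRNAs were called. The others had log2 fold changes of -0.74 to 0.76. The liver label was checked by the summed level of the hepatocyte markers miR-122-5p, miR-192-5p and miR-194-5p, at 473215 to 480645 TPM in NAFLD and 581954 to 620784 TPM in normal liver. Markers of other cells, in which miR-23 and miR-24 also occur, were low beside this sum, which is mostly miR-122-5p (444399 to 594920 TPM). The endothelial miR-126a strands summed to 22.96 to 47.4 TPM in NAFLD and 14.6 to 40.9 TPM in normal libraries, erythroid markers (3 of 4 found) to 26.96 to 74.7 and 30.8 to 50.1 TPM, and immune markers (5 of 6) to 24.3 to 34.5 and 19.1 to 38.1 TPM. Stellate and smooth muscle markers (5 of 5) summed to 520 to 643 and 334 to 575 TPM, mostly from miR-199a-3p (397 to 437 and 210 to 382 TPM). This sum is near the size of the 5 miRNAs summed, at 516 to 822 TPM in NAFLD and 499 to 685 TPM in normal libraries. The log2 fold changes of these markers ran from -1.34 to 0.51, with 3 of 5 above 0. Biliary markers (2 of 5) summed to 0.765 to 2.03 and 1.77 to 2.95 TPM. In these lists 0 of 14 tested sequences of other cells were called, and their part in the levels of the 5 miRNAs was not tested.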

How the data were processed

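Small RNA of 18 to 30 nt was gel-purified from total RNA of 6 rat livers and sequenced on an Illumina instrument. The authors discarded reads of low quality, primer contaminants, empty or poly A reads and those under 18 nt. For every library they deposited raw counts, the number of reads of each tag that was left, with a log of read numbers. The deposited counts are neither normalized nor filtered for a genome match, and the tools of the cleaning are not given in the sources used here. The authors' later mapping with SOAP (builds rn5, Rnor_5.0 in the processing notes) was not needed. Total reads are 12000000 in every log.

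Of 724 mature miRNA entries of RefSeq (GRCr8), 46 under 20 nt were left out, which gave 645 sequences of 20 bases. The members and lists were chosen with earlier results of these data known. The text names the 5 miRNAs, their passenger strands, and for each the 3 most alike miRNAs by Pearson's r. R 4.3.3 with edgeR 4.0.16 was used to test counts per 20-base sequence (filterByExpr, then glmQLFit and glmQLFTest, with all clean reads as library size, Benjamini-Hochberg adjustment and a threshold of 0.05). Standard errors were taken from the log2 fold change and the square root of its F. Ratios and shares were compared by exact permutation tests (scipy 1.17.1), for which 3 against 3 cannot give a p below 0.1. Wilson intervals hold counting error alone, as reads copied by PCR are no independent molecules. The fit was tested on simulated data. Libraries were divided by substitution rate at the largest gap. Replicates differed beyond sampling noise (chi-square of 97.8 or more per degree of freedom). DESeq2 1.42.0, limma 3.58.1 on log2(TPM + 1) and the other alternatives are given with the observations.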

Additional observations from a re-analysis of the deposited data

How the results depend on the processing

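The 5 miRNAs were tested in 18 alternative fits each, with no adjusted p under 0.05 and a smallest of 0.464 (miR-23a-3p, with the substitution set as a covariate in edgeR). Directions were less steady. The log2 fold change of miR-23b-3p, -0.06 as reported, was 0.13 with the reads assigned to miRNAs as library size, 0.10 with the substitution set as a covariate, 0.10 with up to 1 substitution, 0.076 by the first 18 bases with both paralogs together and 0.11 with up to 2 substitutions. By the first 18 bases, miR-27b-3p together with miR-27a-3p had 0.025, and by the whole mature sequence miR-23a-3p had -0.0032. By the first 18 bases the value is that of both paralogs by construction, and the cause of the other turns was not tested. With one library left out at a time, the log2 fold change ran from -0.0598 to 0.41 for miR-23a-3p, -0.23 to 0.11 for miR-23b-3p, -0.11 to 0.26 for miR-24-3p, -0.19 to 0.34 for miR-27a-3p and -0.49 to -0.12 for miR-27b-3p. The summed level of the 5 miRNAs differed by 39.0 TPM as reported and by -44.0 to 109 TPM with a library left out, with -44.0 without NAFLD replicate 1 and -19.6 without normal replicate 2. The log2 difference in the a to b ratio kept its sign in all 13 alternatives for either family. Among these, the replicate block returns the value as reported by construction. The difference ran from 0.15 to 0.40 for miR-23 and 0.30 to 0.59 for miR-27 with a library left out. Within the libraries of low substitution rate it was only 0.02 for miR-23 and 0.12 for miR-27, and within the substituted ones 0.68 and 0.91. By the whole mature sequence it was 0.78 for miR-27, where normal replicate 2 had 9 reads of miR-27a-3p.

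Of all miRNAs tested, 1 was called as reported, 0 with reads assigned to miRNAs as library size, 0 with up to 2 substitutions and 0 with limma, where 7, 19 and 2 passed an unadjusted p under 0.05, and 1 to 2 with a library left out (2 without NAFLD replicate 1). With TMM factors and with DESeq2 it was 1. With a replicate block, edgeR called 1 miRNA and the 5 members had adjusted p-values of 0.960 to 0.965. The mean within-pair log2 difference in the a to b ratio was 0.30 for miR-23 and 0.47 for miR-27 (exact sign permutation, p = 0.25, the smallest that 3 pairs allow). Same-numbered libraries had correlations of deviations from their group means of 0.13, 0.33 and -0.53. These values also carry the substitution sets, so they cannot decide whether the numbers pair the rats. The scarcest strands, at 104 to 351 reads per library for miR-27, limit what the depth can show.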
